A study of Mus musculus with 8 samples.

Results

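The genes described here are 35 genes of the proximal tubule other than solute carriers: its transcription factors, its endocytic receptors, its metabolic and conjugating enzymes, and its brush border proteins. They were chosen as a named list, and 34 of the 35 have a row among the 21291 gene rows of the expression table. Kap, which encodes the kidney androgen-regulated protein, is the one listed gene without a row.

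The proximal tubule is the first segment of the nephron after the glomerulus, and it takes back most of the filtered sugar, amino acids and protein. Its cells bind filtered proteins with megalin and cubilin, internalise them, and carry peptidases on a dense brush border. HNF4A, a nuclear receptor, is required for proximal tubule cells to form from nephron progenitors in the mouse kidney, and many enzymes of the segment are switched on only as the tubule matures.

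RNA was measured in whole kidney pairs of mouse embryos at E14.5, with 4 control and 4 mutant libraries, and the labels call the controls littermates without saying which embryos shared a litter. Controls had the genotype Six2-GFPcre tg/+; Etv4+/-; Etv5fl/fl and mutants the genotype Six2-GFPcre tg/+; Etv4-/-; Etv5fl/fl. All 8 embryos therefore carried both the transgene, which places Cre recombinase in Six2-expressing nephron progenitors, and 2 floxed Etv5 alleles, and the labelled genotypes differ only at Etv4, whose null allele is not limited to these cells. Etv4 and Etv5 encode ETS factors known to respond to FGF and RET signals in the developing kidney.

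Values below are scaled counts, meaning the estimated read count of a gene divided by a size factor for the depth of its library. Total estimated counts ran from 15515139 in control 4 to 39548327, and in control 4 the transcript Lars2, a mitochondrial leucyl-tRNA synthetase, took 18.4% of counts against at most 0.476% elsewhere. Etv4 had 2311 to 2816 scaled counts in controls and 164 to 294 in mutants. Etv5, floxed in both groups, was also lower in every mutant, with 3006 to 4085 in controls and 1487 to 2657 in mutants. The 4 Y-linked genes Ddx3y, Uty, Eif2s3y and Kdm5d summed to 3586 to 3716 scaled counts in controls and 0 to 19.6 in mutants, so in every comparison below genotype and embryo sex cannot be told apart. In whole kidneys, more cells of the tubule and more RNA per tubule cell cannot be told apart either.

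The proximal tubule program was present at very different levels in the 8 kidney pairs, and the level did not follow genotype alone. Counting a gene as detected from 10 scaled counts, 20, 25, 23 and 29 of the 34 genes were detected in the controls, in number order, and 21, 25, 28 and 31 in the mutants. At 1000 scaled counts or more the spread was wider, with 3 genes in each of controls 1, 2 and 3 and mutants 1 and 2, 9 in control 4, 8 in mutant 3 and 13 in mutant 4. Mutant 4 was the highest library for 27 of the 34 genes (79.4%), while it was the highest for 20.2% of the 15096 genes with a mean of at least 10 scaled counts. Control 4, mutant 3 and mutant 4 were the 3 highest libraries for 20 of the 34 genes (58.8%), against 10.1% of the same 15096 genes. Both patterns were noticed before they were counted, so they are descriptions.

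**Figure D1:**
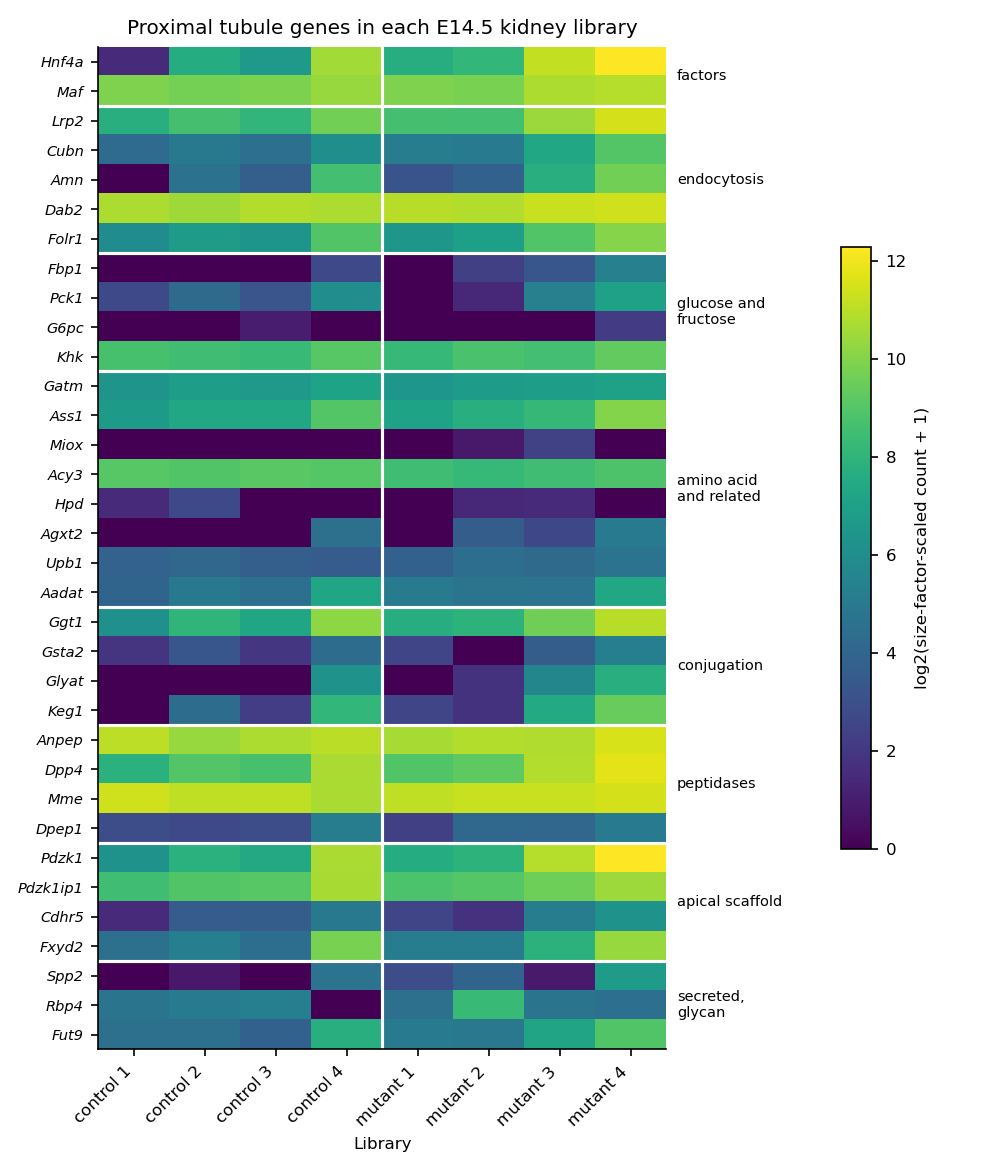
Heat map of the 34 proximal tubule genes (rows, grouped by role) in the 8 libraries (columns, controls left of the white line), coloured by log2(scaled count + 1). Columns for control 4, mutant 3 and mutant 4 are brightest for most rows, while Mme, Anpep, Dab2, Khk, Gatm and Acy3 have a nearly even colour across all 8.

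**Figure D2:**
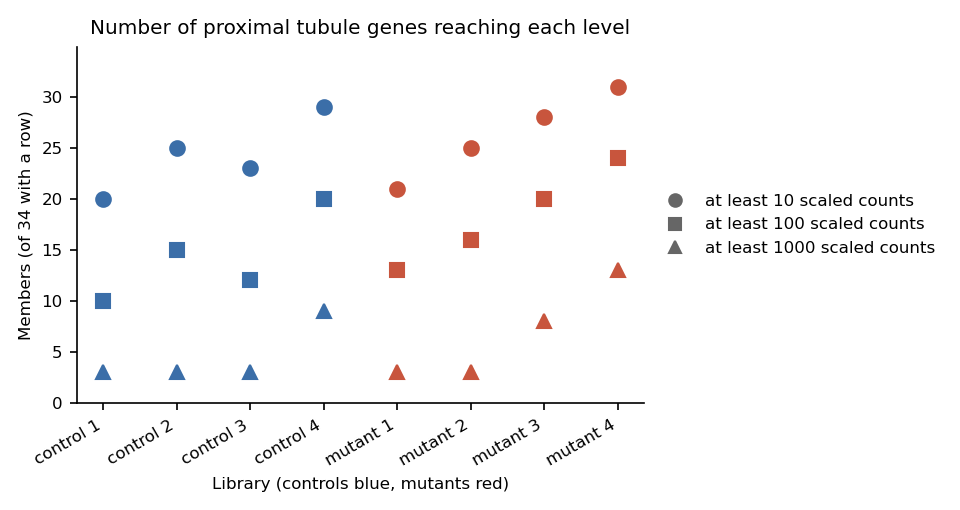
Number of the 34 genes (vertical axis) with at least 10 (circles), 100 (squares) or 1000 (triangles) scaled counts in each library (controls blue, mutants red). At 1000 scaled counts, 5 libraries hold 3 genes each, and control 4, mutant 3 and mutant 4 hold 9, 8 and 13.

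The genes differed in the number of libraries where they were detected. All libraries are of E14.5, so these counts give no order in time. Of the 34, 19 had at least 10 scaled counts in every library, among them Lrp2, Cubn, Dab2, Ggt1, Dpp4, Pdzk1 and Fxyd2. Hnf4a and Rbp4 reached that level in 7 libraries, Amn in 6, Cdhr5 in 5, and Pck1, Keg1 and Dpep1 in 4. Agxt2, Gsta2, Glyat and Spp2 reached it in 3 libraries, and Fbp1 in mutant 4 alone. G6pc, Miox and Hpd, enzymes of glucose release, inositol breakdown and tyrosine breakdown, did not reach it in any library. Their highest values were 3.52, 4.35 and 5.53 scaled counts, and a count of 0 allows up to 8.3 scaled counts in control 4 and at most 2.8 in the other libraries (3 counts each, counting error only).

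The genes also fell into those with a wide and those with a narrow range. Among the 22 genes above 0 in every library, the highest library exceeded the lowest at least 10-fold for 11 genes and at most 2.5-fold for 8 genes. The widest range was that of Hnf4a, and the narrow ones were Gatm, Mme, Dab2, Acy3, Khk, Upb1, Anpep and Maf, several of which are also expressed outside the proximal tubule.

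Hnf4a (ENSMUSG00000017950, chromosome 2, 163506808 to 163572910, plus strand, GRCm38) had 1.84, 193, 96.9 and 1547 scaled counts in the 4 controls, in number order, and 197, 282, 2262 and 4877 in the 4 mutants. Libraries are given in this order throughout. Control 1 held only 2.0 estimated counts of this gene, control 4 lay above mutants 1 and 2, and the groups overlapped. The log2 fold change, mutant minus control, was 3.21 (SE 1.73, 95% interval -0.66 to 7.08), and it did not pass the limma threshold of 0.05 (adjusted p = 0.504). Maf, a basic leucine zipper factor, had 953, 835, 933 and 1343 scaled counts in controls and 954, 894, 1749 and 1954 in mutants, with a log2 fold change of 0.39 (SE 0.27). Its top libraries were the same ones as for Hnf4a, on a background near 900 that Hnf4a lacked.

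Because many of the genes were high in the same libraries, their promoters were searched for the spellings that HNF4A and HNF1 factors are known to bind. RefSeq windows of 250 bases before to 50 after each transcription start (GRCm38.p6) were on hand for 31 of the 35 genes, 41 windows in all, and 13 spellings were searched on both strands. The HNF4-type core CAAAGTNCA was found in 5 of the 41 windows (12.2%), those of Lrp2, Pdzk1, Aadat and both starts of Agxt2, and in 1.41% of all 32851 windows. Its narrower form CAAAGTCCA, part of the former, was in 4 of the 41 (9.76%) and in 0.475% of all. The shorter CAAAGTCC, contained in CAAAGTCCA, was also in a window of Ggt1 (5 of 41, against 1.42% of all), while CAAAGTTCA, CAAAGGTCA and the direct repeat of AGGTCA were in none. The full HNF1 palindrome was in none of the 41 and in 0.00913% of all windows, and a spelling with a looser right side was in 1 window (2.44%, against 0.335% of all), the one at a downstream start of Hnf4a itself. Of 4 other HNF1 spellings, 1 had a match, in G6pc. The TATAAA box was in 10 of the 41 (24.4%) and in 13.6% of all windows. The spellings shown were picked after the search, the 2 windows of Agxt2 overlap and hold the same match, and a match describes letters and not binding. The matched stretches of Hnf4a, Lrp2, Agxt2, Pdzk1 and Aadat are printed because these genes have wide ranges between libraries. Mutant 3 lay below control 4 for Aadat (24.4 against 152) and Agxt2 (5.23 against 22.1), but not for the others. The stretches are given 5′ to 3′ on the strand of the gene, with the match in capitals. Those of Lrp2, Hnf4a and Agxt2 lie before the start, while Pdzk1 and Aadat are cut to the match and 10 bases on each side.
Hnf4a, chr2:163547015-163547154, plus strand: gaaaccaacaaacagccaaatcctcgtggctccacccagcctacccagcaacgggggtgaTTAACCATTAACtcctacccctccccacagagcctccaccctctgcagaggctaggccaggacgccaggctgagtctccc
Lrp2, chr2:69586100-69586239, minus strand: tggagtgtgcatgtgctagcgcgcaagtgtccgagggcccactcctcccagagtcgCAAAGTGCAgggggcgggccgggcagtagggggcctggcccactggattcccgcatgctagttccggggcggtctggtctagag
Agxt2, chr15:10358393-10358531, plus strand: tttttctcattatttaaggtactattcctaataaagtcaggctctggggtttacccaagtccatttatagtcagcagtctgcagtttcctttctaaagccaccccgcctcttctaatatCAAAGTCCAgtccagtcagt
Pdzk1, chr3:96830069-96830097, plus strand: aatctttgtcCAAAGTCCAgtgagttcca
Aadat, chr8:60506042-60506070, plus strand: cctctgtggaTGGACTTTGtcccttctgc

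The endocytic genes showed both a graded and an even pattern. Lrp2, which encodes megalin, the large scavenger receptor of the apical membrane, had 208, 404, 271 and 819 scaled counts in controls and 403, 390, 1393 and 2888 in mutants. Cubn, encoding cubilin, its partner receptor, had 18.4, 30, 21.4 and 69.2 in controls and 35.9, 31.8, 159 and 512 in mutants. For both genes mutants 3 and 4 were the highest libraries and control 4 came next, above mutants 1 and 2. The log2 fold changes of 1.27 for Lrp2 (SE 0.66) and 1.68 for Cubn (SE 0.84) did not pass (limma adjusted p = 0.484 and 0.469).

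Amn, which encodes the amnionless protein that carries cubilin to the membrane, had 0, 23.7, 12.1 and 387 scaled counts in controls and 8.16, 13.1, 209 and 825 in mutants. It differed from Cubn in that control 4 lay above mutant 3. Folr1, a folate receptor of the apical membrane, had 61.7, 105, 82 and 495 in controls and 89.7, 122, 499 and 1046 in mutants, with control 4 and mutant 3 nearly level. Neither passed: the log2 fold change was 1.87 for Amn (SE 1.87) and 1.10 for Folr1 (SE 0.85).

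Dab2, the adaptor that links megalin to clathrin, had a much narrower range, with 1763, 1499, 1887 and 1744 scaled counts in controls and 1977, 1891, 2419 and 2699 in mutants. Every mutant library lay above every control library, by a log2 fold change of 0.37 (SE 0.13, 95% interval 0.09 to 0.66), but the difference did not pass over all genes (limma adjusted p = 0.273, unadjusted p = 0.0153). Dab2 was the single gene of the 34 whose groups separated upward, and Acy3, described below, the single one downward. Over all 14974 genes tested the groups did not overlap for 8.6%, with 4.17% higher and 4.43% lower in mutants, so a share of 2 in 34 is no larger than that background. Dab2 is also made by macrophages and mesenchyme.

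**Figure D3:**
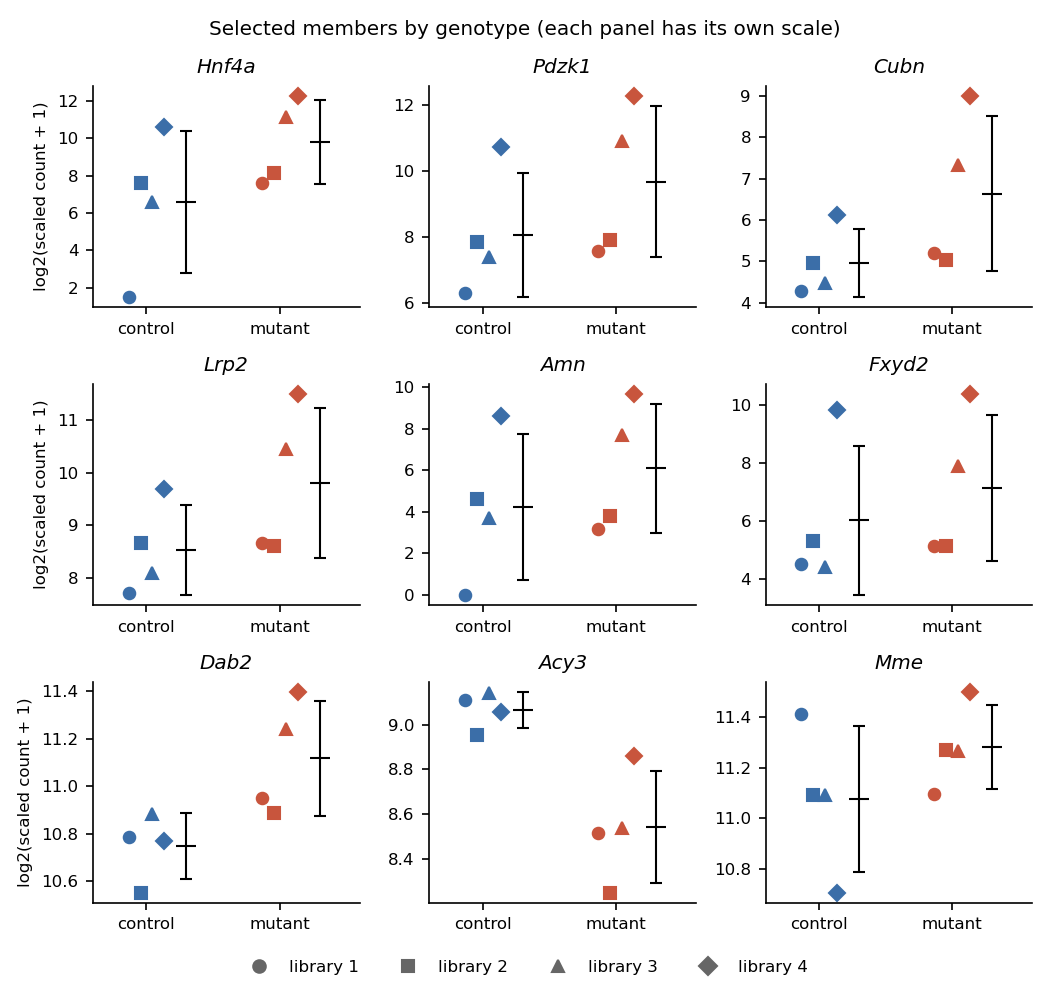
Values of 9 genes as log2(scaled count + 1) by genotype (controls blue, mutants red), each panel on its own scale, with marker shape giving the replicate number and black bars the mean ± SD of 4 libraries. Hnf4a, Pdzk1, Cubn, Lrp2, Amn and Fxyd2 have control 4 well above the other controls and mutants 3 and 4 above mutants 1 and 2, while Dab2 and Acy3 have separate groups within a range of less than 1 log2 unit.

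The enzymes of glucose and fructose handling were mostly low. Pck1, phosphoenolpyruvate carboxykinase, had 5.53, 18.2, 8.39 and 63.7 scaled counts in controls and 0, 1.63, 39.2 and 128 in mutants, with a log2 fold change of -0.62 (SE 1.47). Mutants 1 and 2 were the lowest libraries for this gene and mutant 4 the highest, so the 2 ends of the range were both mutant. Fbp1, fructose-1,6-bisphosphatase, was at 0 in controls 1, 2 and 3 and mutant 1, and had 5.54 in control 4, 4.08 in mutant 2, 8.71 in mutant 3 and 39.6 in mutant 4. Khk, ketohexokinase, which phosphorylates fructose, was even by comparison, from 303 in mutant 1 to 644 in mutant 4, with a log2 fold change of 0.07 (SE 0.24).

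Among the enzymes of amino acid and related metabolism, Acy3 stood apart in direction. It encodes aminoacylase 3, an enzyme that deacetylates mercapturic acids, and had 551, 495, 564 and 531 scaled counts in controls and 365, 303, 371 and 464 in mutants. All 4 mutants lay below all 4 controls, and mutant 4, the library highest for most of the 34 genes, was the mutant nearest to the controls. The log2 fold change was -0.52 (SE 0.14, 95% interval -0.84 to -0.21). This was the smallest p of the list (0.0038), and it did not pass over all genes (limma adjusted p = 0.161). With size factors from total counts the groups of Acy3 overlapped.

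Ass1, argininosuccinate synthase of arginine synthesis, had 102, 164, 156 and 512 scaled counts in controls and 138, 208, 288 and 1009 in mutants. Its 2 highest libraries were mutant 4 and control 4, whose library names carry the same number. Aadat, an aminotransferase of lysine and kynurenine breakdown, had 152 in control 4 and 165 in mutant 4 but 24.4 in mutant 3, within the 14.7 to 31 of the remaining 5 libraries. Agxt2, another aminotransferase, had 22.1 in control 4, 11.4 in mutant 2, 5.23 in mutant 3 and 31.6 in mutant 4, and was at 0 in the other 4 libraries. Gatm, which makes the precursor of creatine, ran from 79.7 to 138 and Upb1, of pyrimidine breakdown, from 11.1 to 24.6, with fold changes on the log2 scale of 0.04 (SE 0.23) and 0.49 (SE 0.42).

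The conjugating enzymes included some of the steepest genes. Ggt1, the gamma-glutamyltransferase that cleaves glutathione at the brush border, had 70.9, 261, 147 and 1171 scaled counts in controls and 198, 244, 776 and 2014 in mutants. Keg1 had 0, 19, 3.73 and 280 in controls and 4.89, 2.45, 182 and 685 in mutants. Glyat, the glycine N-acyltransferase that conjugates acyl-CoAs, was at 0 in controls 1, 2 and 3 and mutant 1 and at 2.45 in mutant 2, against 74.7, 48.8 and 207 in control 4, mutant 3 and mutant 4. Gsta2, a glutathione transferase, was lower, with at most 39.1, in mutant 4. For all 4 enzymes the order from the top was mutant 4, control 4, mutant 3.

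The brush border peptidases split into one graded gene and others that were broadly expressed or low. Dpp4, dipeptidyl peptidase 4, had 228, 510, 411 and 1688 scaled counts in controls and 490, 597, 1881 and 3487 in mutants. Anpep, aminopeptidase N, ran only from 1347 in control 2 to 3012 in mutant 4, and Mme, neprilysin, from 1667 in control 4 to 2898 in mutant 4. Mme thus had its lowest value in the control library where Dpp4 had its highest control value. Dpep1, a dipeptidase, was at 4.08 to 6.52 in controls 1 to 3 and mutant 1, at 16.3 and 15.7 in mutants 2 and 3, and at 36 and 32.5 in control 4 and mutant 4. The log2 fold changes were 1.14 (SE 0.72), 0.18 (SE 0.20), 0.21 (SE 0.15) and 0.47 (SE 0.78), in that order.

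Pdzk1, the scaffold that holds transporters at the apical membrane, had 78.6, 230, 168 and 1703 scaled counts in controls and 193, 242, 1941 and 4981 in mutants. Pdzk1ip1, a small membrane protein that binds it, had a narrower range, with 365, 501, 551 and 1625 in controls and 447, 522, 770 and 1412 in mutants, and was the highest in control 4. Fxyd2, the gamma subunit that regulates the sodium pump, had 22.1, 38.7, 20.5 and 911 in controls and 34.3, 34.3, 237 and 1341 in mutants. Here control 4 was nearer to mutant 4 than mutant 3 was, the reverse of Cubn. Fxyd2 is also expressed in distal segments. Cdhr5, a cadherin that links microvilli, was at 1.84 to 11.2 in controls 1 to 3 and mutants 1 and 2, and at 30.4, 34.8 and 74.7 in control 4, mutant 3 and mutant 4.

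Fut9, a fucosyltransferase that makes the Lewis X glycan, had 22.1, 22.1, 13 and 205 scaled counts in controls and 32.6, 29.4, 141 and 496 in mutants. Spp2, a secreted phosphoprotein, had 0, 0.79, 0 and 24.9 in controls and 6.53, 14.7, 0.871 and 107 in mutants. Mutant 3 was thus low for Spp2, as it was for Aadat, while Fut9 followed the same 3 libraries as Hnf4a.

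Rbp4, the plasma carrier of retinol, did not follow the tubule genes. It had 25.8, 31.6, 38.2 and 0 scaled counts in controls and 22, 317, 25.3 and 21.1 in mutants, so that mutant 2 was far above all others and control 4 had none. Transcripts of the liver stood high in mutant 2 as well: Alb had 230 scaled counts there and at most 32.4 elsewhere, and Apoa1 284 and at most 34. The summed level of the 21 liver genes with a row was 2790 in mutant 2, 683 to 1013 in controls and 620 to 1178 in the other mutants. Alb and Apoa1 were at 0 in mutant 4, the library highest for most tubule genes, and at 5.54 and 8.3 in control 4. Afp instead had 238 in control 4 and 379 in mutant 4 besides 458 in mutant 2. The part of liver RNA in the Rbp4 value was not tested. Without mutant 2 the list's median log2 fold change was 0.9, and without Rbp4 it was 0.66, against 0.74 for all 34 genes.

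**Figure D4:**
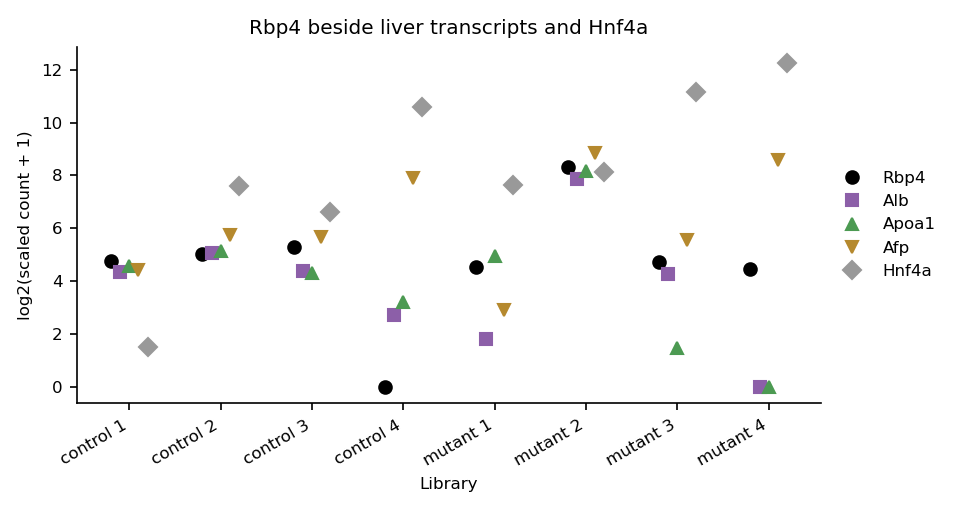
Rbp4, the liver transcripts Alb, Apoa1 and Afp, and Hnf4a as log2(scaled count + 1) in each library. Rbp4, Alb and Apoa1 are highest in mutant 2, at 317, 230 and 284 scaled counts, while Hnf4a is highest in mutant 4.

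The comparison of genotypes asks whether removing Etv4 on this background changed the proximal tubule genes. Of the 34 genes, 26 had at least 10 scaled counts in at least 4 libraries and were tested, and 0 passed an adjusted p of 0.05 (limma), in either direction, with 2 at an unadjusted p below 0.05, Acy3 and Dab2. Over all 14974 genes 0.301% passed (0.0801% higher and 0.22% lower in mutants), and 12% had an unadjusted p below 0.05. Positive log2 fold changes were found for 31 of the 34 genes, with a median of 0.74. Among the 26 tested genes they were found for 24, with a median of 0.59, against 51.7% of all genes tested and a median of 0.009. The median was 0.28 without mutant 4, 1.06 without control 4 and 0.45 with the number in the library names as a block. The spread between libraries of one genotype was larger than for most genes: the standard error was above 0.5 for 17 of the 26 tested genes and for 10.8% of all genes tested. The intervals were wide: that of Cubn reached from -0.19 to 3.55, that of Pdzk1 from -1.0 to 4.22, that of Fxyd2 from -2.07 to 4.3, that of Amn from -2.31 to 6.04 and that of Keg1 from -2.88 to 6.17. The 8 genes not tested, Spp2, Glyat, Fbp1, Agxt2, Gsta2, Miox, G6pc and Hpd, were below the filter and have no p. With a filter on the mean of all 8 libraries, Spp2, Glyat and Gsta2 were also tested, and limma gave 2.25 (SE 1.47), 2.22 (SE 1.96) and 0.01 (SE 1.16) on the log2 scale, with adjusted p of 0.588, 0.697 and 0.998.

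**Figure D5:**
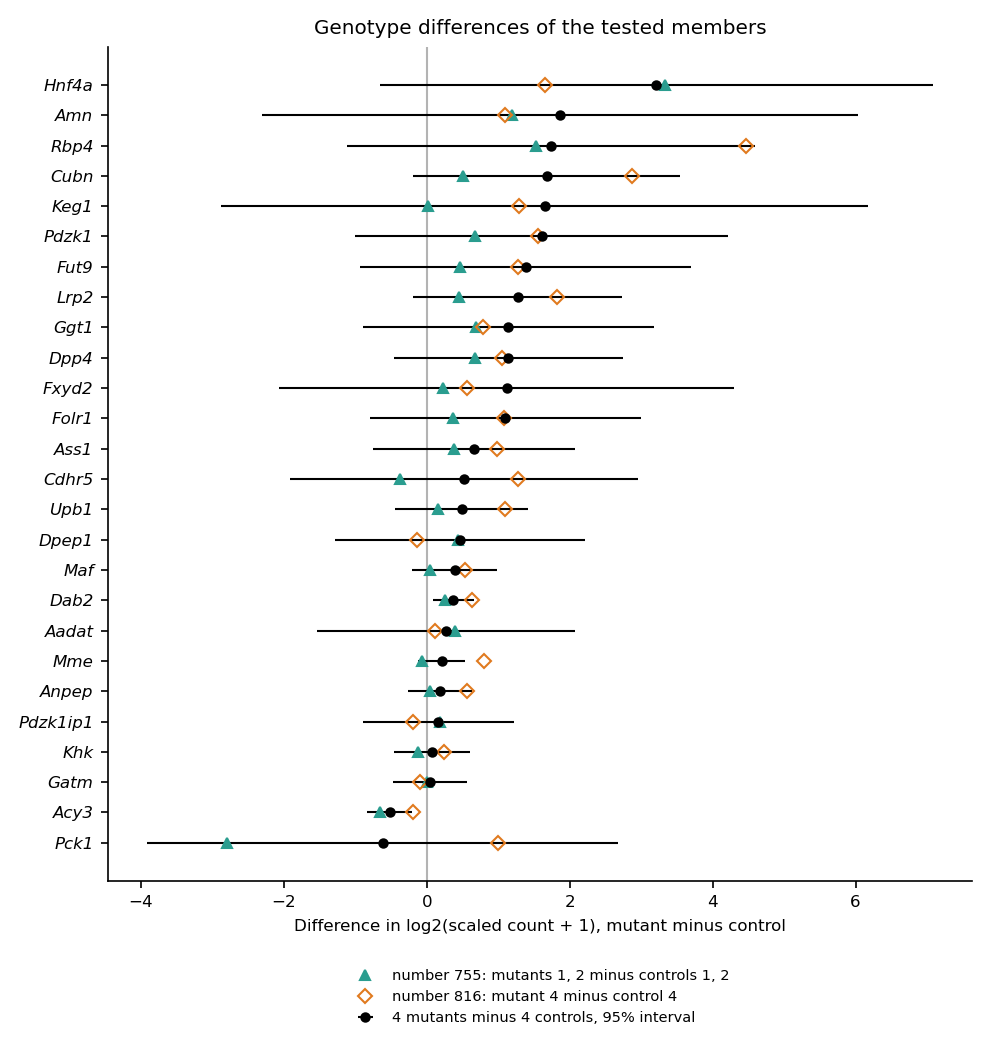
Difference in log2(scaled count + 1), mutant minus control, for the 26 tested genes: black circles and bars give the value over 4 against 4 libraries with its 95% interval, green triangles mutants 1 and 2 minus controls 1 and 2, and open orange diamonds mutant 4 minus control 4. The bars cross 0 for all genes but Dab2 and Acy3, and the triangles and diamonds are above 0 for most.

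Controls 1 and 2 and mutants 1 and 2 share one number in their library names, and control 4 and mutant 4 share another, whose meaning the labels do not state. Mutants 1 and 2 minus controls 1 and 2 was above 0 for 25 of the 34 genes and below for 7, with a median of 0.38. Within the other number, mutant 4 minus control 4 was above 0 for 28 genes and below for 4, with a median of 0.99. Over all genes tested, 50.8% and 53.1% were above 0 in these comparisons, with medians of 0 and 0.04. The 34 include 8 genes below the filter, which the shares over all genes tested leave out. Mutant 4 exceeded control 4 at least 2-fold for 18 of the 34 genes, against 7.47% of all genes tested. The ratio was 7.39 for Cubn, 3.53 for Lrp2 and 3.15 for Hnf4a, and 0.869 for Pdzk1ip1. A single pair carries no replicate error. Among controls 1 and 2 and mutants 1 and 2 alone, the groups did not overlap for 8 of the 34 genes. Hnf4a, Cubn, Dab2, Spp2 and Fut9 separated upward (20.6% of all genes tested) and Pck1, Acy3 and Hpd downward (21.2%). This share is below the 41.8% of all genes tested in either direction. Of the 8, Hnf4a, Spp2, Pck1 and Hpd were below the filter in these libraries and have no p. No listed gene tested there passed (limma, 0.12% of all genes tested). Control 3 and mutant 3 have numbers of their own, with no partner in the other genotype.

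Single libraries moved the comparison in both directions. Control 4 had the shallowest library and the large Lars2 share, and it was the control with the most RNA of Hnf4a, Lrp2, Cubn, Pdzk1, Dpp4 and Ggt1. Without control 4, Hnf4a, Cubn, Dab2, Spp2 and Fut9 were higher in every mutant than in every remaining control, with Acy3 lower. Those 6 genes of 34, with Spp2 below the filter, compare with 17.3% of all genes tested without control 4 (8.62% higher and 8.7% lower). None of the 23 genes then tested passed (lowest limma adjusted p = 0.122), 10 had an unadjusted p below 0.05 against 18.2% of all genes, and 1.08% of all genes passed. The difference without control 4 was 4.58 for Hnf4a (SE 1.52, limma adjusted p = 0.169), 2.5 for Pdzk1 (SE 1.03) and 2.39 for Fxyd2 (SE 1.12), on the log2 scale. Without mutant 4 these values were 2.39 for Hnf4a (SE 1.84), 0.74 for Pdzk1 (SE 1.09) and 0.034 for Fxyd2 (SE 1.31), and that of Cubn was 0.89 (SE 0.66) and that of Lrp2 0.7 (SE 0.55). Without control 1, the control with almost no Hnf4a, that gene's difference was 1.52 (SE 1.25).

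The authors' deposited table of 644 genes lists 7 of the 34, which is a larger share than the 4.12% that 644 genes make of the 15650 genes that its p-values and adjusted p-values imply were adjusted. The same values imply a rank of 1014 for its last gene, so genes that passed as well are missing from it. The 4.12% and the backgrounds below thus count the genes listed and not all that passed. Of the 7 genes in the authors' deposited table, 6 are higher in mutants (background 2.45%) and Acy3 is lower (background 1.67%). On the log2 scale the authors' deposited table gives Spp2 6.68 (SE 1.67, adjusted p = 0.00314), Fbp1 6.34 (SE 1.93), Agxt2 6.22 (SE 1.91), Fxyd2 3.92 (SE 1.31), Pdzk1 3.53 (SE 1.17), Fut9 3.19 (SE 1.07) and Acy3 -0.51 (SE 0.17, adjusted p = 0.0409). These are fold changes of normalized counts, a scale other than the differences in log2(scaled count + 1) given above. The fold changes of the authors' deposited table matched the ratio of group means without control 4 within 0.1 log2 units for 99.2% of 619 genes, and with all 8 libraries for 31%. Leaving out any other single library gave a match for 18.8% to 48.5%. The values thus match a comparison of 4 mutants with controls 1, 2 and 3, which the labels do not state. Spp2, Fbp1 and Agxt2 were at or below 0.79 scaled counts in those 3 controls, and mutant 4 had the highest value of each.

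Genes of the tubule outside the 34, from lists written for this comparison, had 0 members past the limma threshold, as did the lists of other nephron parts. At an unadjusted p below 0.05 there were 1 of the 15 solute carriers, 4 of the 8 factors, 2 of the 23 endocytic, 2 of the 10 microvillus and 1 of the 13 peroxisome genes tested, and 12 of 18 early nephron, 4 of 12 podocyte, 1 of 14 loop and distal and 5 of 13 ureteric genes, against 12% of all genes. Of 15 tested proximal tubule solute carriers, which move the sugars, salts and amino acids, 13 had positive fold changes, with a median of 0.80 on the log2 scale, and Slc3a2 (0.18, SE 0.08) and Slc26a1 (0.59, SE 0.29) had the smallest p. The 29 carriers with a row summed to 3908, 4145, 3854 and 6574 scaled counts in controls and 4680, 4254, 5567 and 10387 in mutants. Control 4, mutant 3 and mutant 4 were thus the highest libraries for the carriers too. Of the 8 tested factors, a list of HNF, nuclear receptor and other factors, 8 were positive with a median of 0.86. The smallest p were those of Ppargc1a (0.75, SE 0.22), a coactivator of mitochondrial genes, and Tfcp2l1 (0.45, SE 0.14). Tfcp2l1 is neither an HNF factor nor a nuclear receptor.

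The general endocytic machinery was nearly level, with 17 of 23 genes positive and a median of 0.10. Its sum was still higher in all mutants than in all controls, at 91909 to 95676 scaled counts in controls and 97074 to 103871 in mutants. Myo6, the motor that moves endocytic vesicles, separated the groups, with 2084 to 2939 scaled counts in controls and 3491 to 5291 in mutants (0.69, SE 0.15, limma adjusted p = 0.104), as did Ehd1, a recycling endosome protein, by less (0.19, SE 0.08). Of 10 tested microvillus genes 8 were positive, with a median of 0.48, led by Eps8l2 (0.75, SE 0.19, limma adjusted p = 0.155), and Espn was negative (-0.46, SE 0.19). Of 13 tested peroxisome and fatty acid oxidation genes 11 were positive with a median of 0.17, led by Ehhadh (0.78, SE 0.30), with Acsm3 next (1.20, SE 0.55).

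Markers of neighbouring nephron parts differed between the libraries as well. The 13 podocyte genes, the slit diaphragm gene Nphs1 among them, summed to 15772 to 20695 scaled counts in controls, with the top value in control 4, and to 17858 to 31741 in mutants, with mutants 3 and 4 highest. The 18 early nephron genes summed to 45493 to 56270 in controls and 61230 to 70883 in mutants, so all mutants were above all controls for this sum, with Pax8 at the smallest p of that list (0.64, SE 0.12, limma adjusted p = 0.0688). The 17 loop and distal genes summed to 11606 to 16908 in controls and 11470 to 13800 in mutants, with mutant 4 the lowest. Calb1, which is on the ureteric list too, was the largest part of this sum in every library. It had 8206 to 11499 in controls and 10285, 9864, 7427 and 6068 in mutants. Slc12a1, Irx1 and Umod were picked out with their values known. Slc12a1 had 332 in control 4, 207 in mutant 4, 35.7 in mutant 3 and at most 14.2 elsewhere. Irx1 had 794, 1219 and 619 in the same libraries and at most 129 elsewhere, while Umod had 58.1 in control 4 and at most 7.91 elsewhere. The 13 ureteric and collecting duct genes summed to 28747 to 38763 in controls and 29442 to 33021 in mutants. Among them Wnt11 (-0.84, SE 0.15, limma adjusted p = 0.058) and Hsd11b2 (-0.78, SE 0.15, limma adjusted p = 0.0774) were lower in every mutant than in every control. Adrenal cortex genes summed to 2718 to 3274 in controls and 2887 to 3213 in mutants, and gut genes to 56.1 to 66.4 and 52.2 to 112. In the gut list Cdx2 has no row and Fabp1 was at most 8.98. The part of these other cell types in the tubule gene values was not tested.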

How the data were processed

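Libraries came from polyA RNA of frozen kidney pairs, read at both ends, per the labels' protocols. The submitters' processing notes name build mm10, kallisto 0.46.0, fastp 0.23.2 and DESeq2 1.40.2, with no settings. The authors deposited log2 values in 8 columns, which the values show to be log2(estimated count + 1), not corrected for depth although the design had allowed for it (73.4% were whole after back-transformation, within 1e-06). Per the file headers, the authors' second file holds mean normalized counts (signal), log2 fold changes, test statistics (a score) and p-values.

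Estimated counts were divided by median-of-ratios size factors (0.361 to 1.27), and log2(scaled count + 1) was tested with limma 3.58.1 in R 4.3.3 (trend, two-sided, Benjamini-Hochberg over 14974 genes with at least 10 scaled counts in at least 4 libraries). Fold changes on this scale understate low genes, and p-values treat the 8 embryos as independent. The genes and lists were chosen with earlier results of these data known. Every listed gene is described, together with, from each tubule list, any gene that passed and otherwise the 2 of lowest p. Tested on data simulated for this comparison (14984 genes), the fit recovered 70% of changes of 1 log2 unit and 94% of changes of 2, with 2.96% of calls on unchanged genes. The changed genes were drawn from genes at large, each with noise of its own. The median standard error was 0.15 for all genes tested but 0.8 for the listed genes tested. These recovery rates therefore do not hold for the listed genes. Alternatives covered filters, pseudocount, scaling, test, blocks and left-out libraries; controls 1 and 2 with mutants 1 and 2 alone, and the list without Rbp4 were added after seeing the data. Figures used matplotlib 3.10.9 in Python 3.11.15.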

Additional observations from a re-analysis of the deposited data

Results flagged for a closer look

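Within groups of 4 libraries, a single library stood far from the other 3 in 10 of 68 gene and genotype sets, measured as its gap to the nearest other over the whole range on the log2(scaled count + 1) scale, above Dixon's 95% critical value. Chance flags about 1 in 20 such groups, and the genes move together, so these sets are not independent. Control 4 was the library in 6 of the 10: high for Fxyd2 (911 scaled counts), Glyat (74.7), Dpep1 (36), Agxt2 (22.1) and Fbp1 (5.54), the last within the counts that a count of 0 allows there, and at 0 for Rbp4. Mutant 2 was high for Rbp4 (317), in the library where Alb and Apoa1 were also highest. Mutant 4 was high for Aadat (165) and, within 4.0 estimated counts, for G6pc (3.52), and control 3 stood apart for G6pc at 0.932, which is 1.0 estimated count.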

How the results depend on the processing

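No listed gene passed the threshold under any setting with depth correction, the lowest adjusted p being 0.0541. Without depth correction 5 passed, Hnf4a (3.69), Lrp2 (1.74), Cubn (2.14), Amn (2.36) and Pdzk1 (2.08), where the median of all genes was 0.476, the limma prior degrees of freedom were infinite (3.74 with depth correction and all else equal), and the median of mutant 4 minus control 4 was 2.52. Size factors from total counts moved the median of all genes to 0.141. The number of all genes past the threshold was 45, but 11 with size factors from total counts, 80 without depth correction, 69 with limma voom, 28 without the trend, 133 with the replicate block, 179 without both control 4 and mutant 4, 17 with controls 1 and 2 and mutants 1 and 2 alone, and 2 to 161 with one library left out (2 without control 3, 161 without control 4). The count of listed genes whose groups did not overlap was 2, but 1 with size factors from total counts and 6 without both control 4 and mutant 4. It was 8 with controls 1 and 2 and mutants 1 and 2 alone, where 41.8% of all genes tested did not overlap. With 1 library left out it was 2 to 6. Same-numbered titles were not paired in the main fit. Deviations from group means correlated at 0.266, 0.098, -0.126 and 0.348, in number order. Controls 1, 2 and 4 correlated best with the mutant of their own number, and control 3 with mutant 1. The replicate block changed no listed gene's call, but many standard errors depend on it. With it the SE was 0.8 against 1.73 for Hnf4a (limma adjusted p = 0.109 against 0.504) and 0.26 against 0.72 for Dpp4 (limma adjusted p = 0.09 against 0.564). For Upb1 it was larger, 0.49 against 0.42.

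Signs turned for 10 genes with one library left out, when the log2 fold change ran from -1.8 to 0.53 for Pck1 (untested where it fell below the filter), -0.8 to 0.97 for Gsta2, -0.23 to 0.54 for G6pc and -0.73 to 0.21 for Hpd (all untested), -0.12 to 0.24 for Khk, -0.09 to 0.18 for Gatm, -0.37 to 0.97 for Aadat, -0.0095 to 0.29 for Anpep, -0.17 to 0.61 for Pdzk1ip1 and -0.25 to 1.23 for Cdhr5; Khk was -0.0018 and Gatm -0.029 with the library-name number as a block, and Khk was -0.12, Mme -0.068 and Cdhr5 -0.38 with controls 1 and 2 and mutants 1 and 2 alone. The causes were not tested. The median log2 fold change of the 34 genes stayed positive, from 0.28 without mutant 4 to 1.06 without control 4. Depth limits genes under about 10 scaled counts, most of all in control 4.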
